A study of Mus musculus with 6 samples.

Results

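Notch signalling passes between touching cells. A ligand of the Jagged or Delta-like family on one cell binds a Notch receptor on its neighbour, proteases release the receptor's intracellular part, and this part joins the DNA-binding protein RBPJ to switch on target genes, among them repressors of the HES and HEY families. In the prostate the pathway is known for its part in the balance between basal and luminal epithelial fates. Expression was described here for 10 genes of this pathway, out of 25273 genes with a value: the receptors Notch1, Notch2 and Notch3, the ligands Jag1, Jag2 and Dll1, and the targets Hes1, Hey1, Heyl and Nrarp. They were taken by symbol, though the list was set with earlier results of these data known.

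The study compared basal epithelial cells of the proximal ducts of the mouse prostate, those nearest the urethra, with basal cells of the distal ducts, toward the gland tips. Each group held 3 RNA sequencing libraries from C57BL/6 mice of 8 to 12 weeks, with no treatment or genetic change named in the labels. Cells were dissociated and sorted by flow cytometry, but the antibodies and gates that define a basal cell are not given in the sources used here. The growth protocol describes primary stromal cells in culture, and whether basal cells were cultured before sorting is not stated. Separate animals are not named for the replicates, so a p-value here reflects differences among libraries that may be technical. The basal markers were present in every library (10 of 10 tested, summed level 7678 to 9386 FPKM), and luminal markers, Krt18 at their head, were also abundant (summed level 2079.9 to 2883 FPKM). FPKM counts sequenced fragments relative to transcript length and library depth, so levels of different genes can be set side by side. The effect of the RNA amplification on such comparisons was not tested. The deposited intervals imply depths of 21.0 to 27.0 M fragments per library (M, mega).

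None of the pathway genes passed the test for a difference between the duct regions. All 10 had a matched transcript and 8 had a mean of at least 1 FPKM, the minimum for testing, whereas Notch3 and Heyl lay under it. Of the 8 tested, 0 were called (limma, adjusted p under 0.05), beside 7.02% of all 10255 genes tested, of which 4.52% were higher and 2.50% lower in proximal cells. An unadjusted p under 0.05 was reached by 2 members, Notch1 and Jag1, beside 24.0% of all genes. Proximal and distal values did not overlap for 4 of the 8, Notch1, Jag1, Hes1 and Hey1, beside 28.8% of all genes tested. With Notch3 and Heyl this held for 6 of the 10, beside 22.6% of the 18570 genes above 0 in a library. The log2 fold change, proximal minus distal on the scale of log2(FPKM + 1), was negative for 6 and positive for 2, with a median of -0.22 against -0.01 over all tested genes. A p that misses the threshold does not show that regions were alike, so each tested member is given with the 95% interval of its difference.

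**Figure D1:**
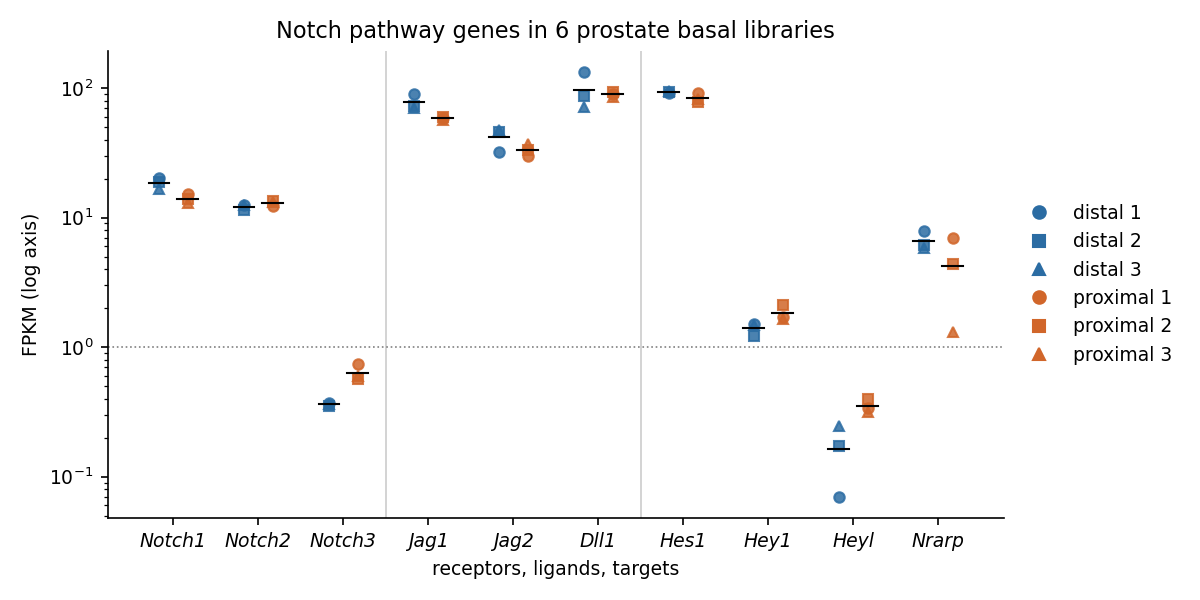
FPKM on a log axis of the 10 Notch pathway genes in each of 6 libraries, 3 distal (blue) and 3 proximal (orange), with short black lines at the group means and a dotted line at 1 FPKM. Dll1, Hes1 and Jag1 lie highest, Notch3 and Heyl lie under the dotted line, and on this log axis Nrarp is spread widest of the 10 among the proximal libraries.

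Mean levels of the members spanned a range from 0.256 to 93.3 FPKM. Dll1 had a mean of 93.3 FPKM over the 6 libraries and Hes1 one of 88.4 FPKM, and these neighbours in the order overlapped in both groups. Jag1 followed at 68.1 FPKM, Jag2 at 37.6 FPKM, Notch1 at 16.2 FPKM and Notch2 at 12.6 FPKM. Notch1 and Notch2 were separate in the distal libraries and overlapped in the proximal ones. Nrarp stood at 5.41 FPKM and Hey1 at 1.62 FPKM, a pair that again was separate in distal and overlapped in proximal libraries. Notch3 had 0.499 FPKM and Heyl 0.256 FPKM. By mean level, Dll1, Hes1 and Jag1 stood at the percentiles 93.3, 92.9 and 90.8 of all tested genes, Notch1 at 66.3 and Hey1 at 9.28.

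Among the receptors, Notch1 had its lower values in the proximal libraries, Notch2 overlapped between regions and Notch3 was scarce. Notch1, the receptor most often linked to epithelial differentiation, was listed at 20.1, 18.7 and 16.5 FPKM in distal replicates 1, 2 and 3, and at 15.1, 13.8 and 13.0 FPKM in proximal replicates 1, 2 and 3. Every proximal value lay under every distal value, but the deposited intervals overlap, from 15.6 FPKM upward in the lowest distal and up to 16.0 FPKM in the highest proximal library. The means were 18.4 ± 1.81 and 14.0 ± 1.10 FPKM (SD, n = 3). On the log2 scale proximal cells differed by -0.38 ± 0.12 (SE; limma, adjusted p = 0.0965). Its 95% interval ran from -0.64 to -0.11 before adjustment over genes. The gene lies on chromosome 2 (26457903 to 26516663, GRCm38, minus strand), and 1 of its 5 matched transcripts, of 9489 bases, carried all of the signal.

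Notch2, a paralogous receptor, was at 12.5, 11.5 and 12.4 FPKM in distal replicates 1 to 3 against 12.3, 13.5 and 13.2 FPKM in proximal replicates 1 to 3, so the groups overlapped. Its log2 fold change was 0.09 ± 0.10 (SE, limma, adjusted p = 0.623), and the interval from -0.14 to 0.33 leaves room for a fold from 0.906 to 1.26. Notch2 lies on chromosome 3 (98013527 to 98150361, plus strand). Both receptors rested on 2767 to 4792 fragments per library, as implied by level, length and depth.

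Notch3, the receptor known from vascular mural cells, was listed at 0.370, 0.354 and 0.366 FPKM in distal replicates 1 to 3 against 0.739, 0.564 and 0.600 FPKM in proximal replicates 1 to 3. All proximal values were above all distal ones, a ratio of means of 1.75, on 205 implied fragments in the distal and 359 in the proximal libraries together. With no filter on low values, where 18570 genes were tested, it did not pass (limma, log2 fold change 0.26 ± 0.07 SE, adjusted p = 0.101, and adjusted p = 0.257 with a pseudocount of 0.1). It lies on chromosome 17 (32120820 to 32166852, minus strand).

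**Figure D2:**
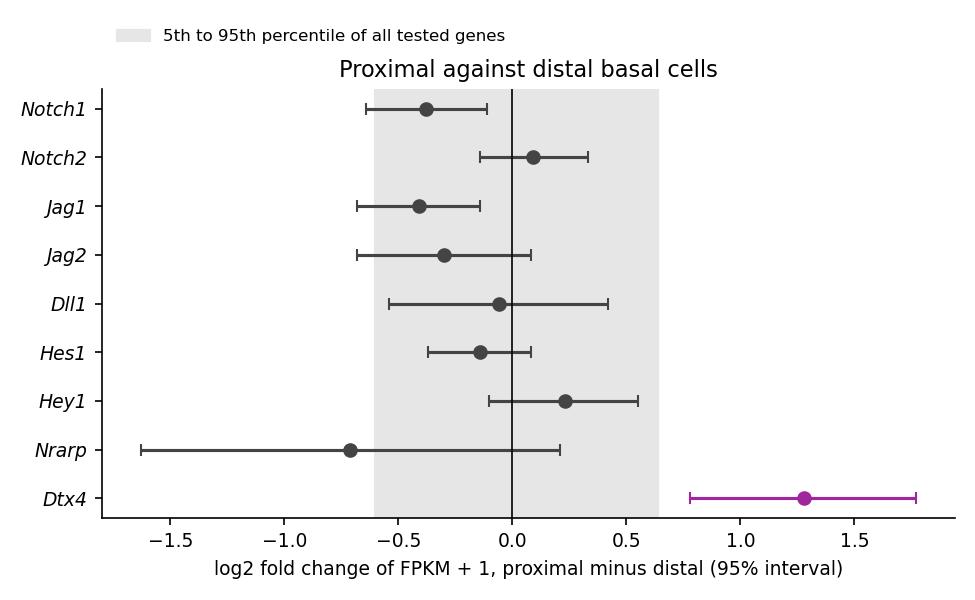
Log2 fold change of FPKM + 1, proximal minus distal, with its 95% interval, for the 8 tested Notch pathway genes and for Dtx4, over a grey band from the 5th (-0.60) to the 95th percentile (0.64) of all tested genes. The points of 7 of the 8 members lie inside the band, that of Nrarp lies left of it with the widest interval, and Dtx4 lies right of it.

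Of the ligands, Jag1 had the smallest p of the 8 members, and the values of Jag2 and Dll1 turned on 1 distal library. Jag1, a Jagged ligand, was listed at 90.4, 72.9 and 70.6 FPKM in distal replicates 1 to 3 against 58.4, 59.8 and 56.4 FPKM in proximal replicates 1 to 3. The groups were clear of each other, also by the deposited intervals, which end at 61.2 FPKM in the highest proximal and begin at 69.2 FPKM in the lowest distal library. The means were 78.0 ± 10.8 and 58.2 ± 1.74 FPKM (SD, n = 3), and the log2 fold change was -0.41 ± 0.12 (SE, limma, adjusted p = 0.0805), with an interval from -0.68 to -0.14. It did pass after quantile normalization (limma, adjusted p = 0.0469) and without both libraries numbered 1 (limma, adjusted p = 0.0470), with log2 fold changes of -0.41 and -0.30. Those fits called 8.81% and 22.3% of all genes tested, beside the 7.02% given above.

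Jag2, the other Jagged ligand, was at 32.0, 46.1 and 47.6 FPKM in distal replicates 1 to 3 against 30.1, 33.1 and 36.9 FPKM in proximal replicates 1 to 3. Distal replicate 1 lay among the proximal values, and the other distal libraries stood above all of them. The log2 fold change was -0.30 ± 0.16 (SE, limma, adjusted p = 0.304), with an interval from -0.68 to 0.08. Without distal replicate 1 it was -0.48 and passed (limma, adjusted p = 0.0465), and without both libraries numbered 1 it was -0.41 (limma, adjusted p = 0.0273). More genes passed in general in those fits, 11.1% and 22.3% of all genes tested.

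Dll1, a Delta-like ligand, was at 133, 86.4 and 71.2 FPKM in distal replicates 1 to 3 against 89.8, 93.6 and 85.8 FPKM in proximal replicates 1 to 3. Distal replicate 1 was the highest of the 6 and distal replicate 3 the lowest, so the proximal libraries lay within the distal range. The log2 fold change was -0.06 ± 0.21 (SE, limma, adjusted p = 0.897), with an interval from -0.54 to 0.42, and it turned to 0.19 without distal replicate 1 (limma, adjusted p = 0.335).

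The ligands thus ordered the distal libraries differently: distal replicate 1 was the highest for Jag1 and Dll1 and the lowest for Jag2. The ratio of Jag2 to Jag1 was 0.355 in that library, 0.632 and 0.674 in the other distal libraries and 0.515, 0.554 and 0.655 in the proximal ones. Genes of dissociation stress and the immediate early response summed to 10031 FPKM in distal replicate 1, to 17703 and 18505 FPKM in distal replicates 2 and 3, and to 7356 to 9253 FPKM in the proximal libraries. Of the 16 tested genes of that list 0 were higher, 2 were lower in proximal cells and 14 did not pass, with a median log2 fold change of -0.88. Over all genes tested, 4.52% were higher and 2.50% lower. The part of that list in the ligands' values was not tested. Jag1 lies on chromosome 2 (137081456 to 137116644), Jag2 on chromosome 12 (112907819 to 112929776) and Dll1 on chromosome 17 (15367354 to 15376872), all on the minus strand.

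**Figure D3:**
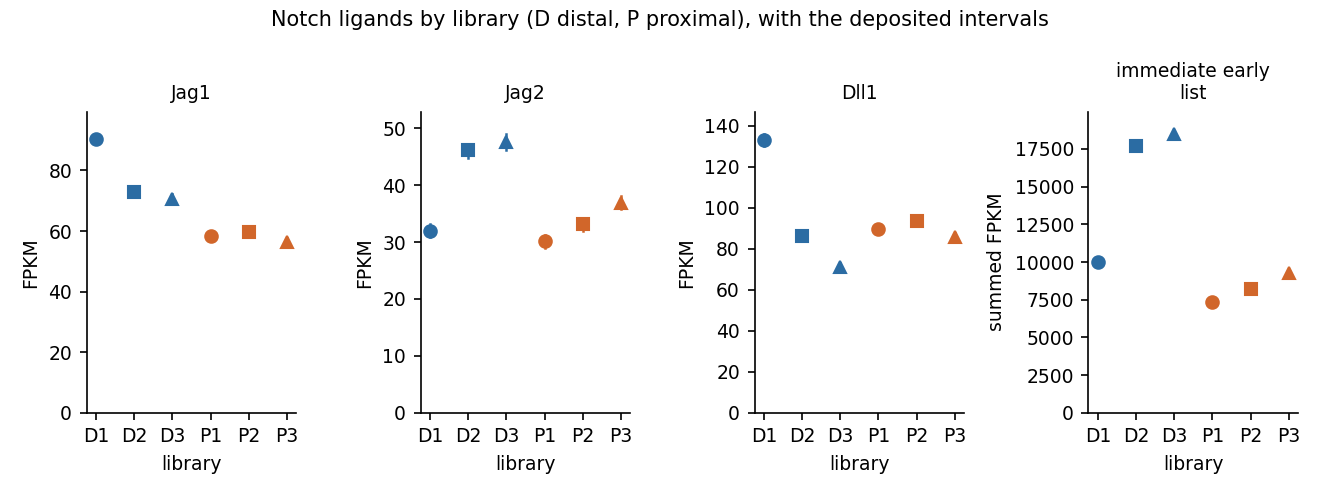
FPKM of Jag1, Jag2 and Dll1 in each library (D1 to D3 distal, P1 to P3 proximal; vertical lines, often shorter than the symbol, are the deposited intervals), beside the summed FPKM of the immediate early list. Library D1 is highest for Jag1 and Dll1, at 90.4 and 133 FPKM, and lowest of the distal libraries for Jag2 and for the list, at 32.0 and 10031 FPKM.

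The start regions of Jag1 and Notch1 are shown because these were the members with an unadjusted p under 0.05. Each sequence comes from the 250 bases before the RefSeq transcription start on GRCm38.p6, minus strand, 5′ to 3′, without bases that GENCODE counts as exon. It spans 126 bases for Jag1 (chr2:137116645-137116770) and 248 bases for Notch1 (chr2:26503825-26504072). Capitals mark CACGNG, a site form bound by HES and HEY repressors, on either strand.
Jag1: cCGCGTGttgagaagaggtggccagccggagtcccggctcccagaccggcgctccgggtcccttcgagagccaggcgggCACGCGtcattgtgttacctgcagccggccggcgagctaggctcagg
Notch1: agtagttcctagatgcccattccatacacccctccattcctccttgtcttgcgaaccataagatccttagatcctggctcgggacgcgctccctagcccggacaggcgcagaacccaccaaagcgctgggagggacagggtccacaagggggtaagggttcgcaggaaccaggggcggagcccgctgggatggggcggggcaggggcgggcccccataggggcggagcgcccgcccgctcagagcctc
Jag1 held 2 matches, which begin at positions -249 and -171 from the RefSeq start, and Notch1 held 0. GENCODE places the starts elsewhere: it counts 124 bases of the Jag1 window as exon, and the Notch1 window lies inside its span of that gene. RefSeq windows were matched for 7 of the 10 members, not for Hes1, Hey1 and Heyl, and comprised 8 windows since Dll1 has 2. CACGNG occurred in 6 of the 8, both Dll1 windows among them, and in 23.5% of the 32851 windows of all genes. The 8 windows held 56% to 87.2% G and C, and the windows of all genes were not matched to them for this. TGGGAA, the core of the site bound by RBPJ, searched on both strands, was in 0 of the 8 and in 21.6% of all windows. With 0 matches of TGGGAA, none overlapped a CACGNG in these windows, and a match describes letters only.

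Among the target genes, Hes1 was the most abundant, and Nrarp had the longest interval of the difference on the log2 scale. Hes1, the repressor that is the best known Notch target, was listed at 91.4, 92.5 and 94.6 FPKM in distal replicates 1 to 3 against 91.1, 78.0 and 83.0 FPKM in proximal replicates 1 to 3. The groups were parted by the narrow step between distal replicate 1 and proximal replicate 1, and the deposited intervals of those libraries overlap (87.8 to 94.9 and 87.7 to 94.4 FPKM). Its log2 fold change was -0.14 ± 0.10 (SE, limma, adjusted p = 0.410), with an interval from -0.37 to 0.08, that is a fold from 0.773 to 1.06.

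Nrarp, which encodes a feedback inhibitor that binds the Notch transcription complex, was at 7.82, 6.16 and 5.81 FPKM in distal replicates 1 to 3 against 6.96, 4.39 and 1.30 FPKM in proximal replicates 1 to 3. Proximal replicate 1 lay within the distal range and proximal replicate 3 far under it, with a deposited interval of 1.02 to 1.58 FPKM on 87 implied fragments. The log2 fold change was -0.71 ± 0.40 (SE, limma, adjusted p = 0.323), with the widest interval of the members, from -1.63 to 0.21. Without proximal replicate 3 it was -0.21, and without proximal replicate 1 it was -1.10 (limma, adjusted p = 0.659 and 0.0873).

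Hey1, a repressor of the HEY family with a known part in vessels, was listed at 1.52, 1.22 and 1.49 FPKM in distal replicates 1 to 3 against 1.72, 2.11 and 1.64 FPKM in proximal replicates 1 to 3. The groups did not overlap, but the deposited intervals did, and each value rested on 70 to 100 implied fragments. The log2 fold change was 0.23 ± 0.14 (SE, limma, adjusted p = 0.370), with an interval from -0.10 to 0.55. Heyl, of the same family, was at 0.0701, 0.172 and 0.246 FPKM in distal replicates 1 to 3 against 0.338, 0.394 and 0.315 FPKM in proximal replicates 1 to 3. All proximal values were above the distal ones, a ratio of means of 2.15, on 54 implied fragments in the distal and 112 in the proximal libraries together. With no filter on low values Heyl did not pass (limma, log2 fold change 0.22 ± 0.06 SE, adjusted p = 0.139, and adjusted p = 0.246 with a pseudocount of 0.1). Of the target genes Hes1 lies on chromosome 16 (30064384 to 30067796), Heyl on chromosome 4 (123233556 to 123249875) and Nrarp on chromosome 2 (25180758 to 25183339), all on the plus strand, and Hey1 on chromosome 3 (8663359 to 8667256, minus strand).

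For Notch3, Hey1 and Heyl every proximal value was above every distal one, and the summed endothelial markers were higher in proximal libraries too. For the counts that follow, 4.52% of all genes tested were higher and 2.50% lower in proximal cells. The endothelial list summed to 25.3, 8.19 and 13.1 FPKM in distal and to 50.8, 48.2 and 36.8 FPKM in proximal libraries. Of its 11 tested genes 6 rose, 0 fell and 5 did not pass, while all 11 had a positive log2 fold change. In the mural and smooth muscle list 3 of 12 rose (Rgs5, Pdgfrb and Mcam), 0 fell and 9 did not pass, while its summed level, carried mainly by Smtn, was 251 to 308 FPKM in distal and 284 to 292 FPKM in proximal libraries. Nerve and glia markers summed to 4.20 to 7.12 and 14.2 to 19.6 FPKM, with 3 of 5 tested genes higher, 0 lower and 2 not passing. In the fibroblast list 5 of 8 rose, 0 fell and 3 did not pass, and its sum, carried mainly by Dcn, was 778 to 819 FPKM in distal and 707 to 778 FPKM in proximal libraries. In the distal libraries Notch3 and Hey1 stood in the order of the endothelial sums, though their deposited intervals overlap there. Heyl did not: distal replicate 1 had the highest endothelial sum of the distal libraries and the lowest Heyl value. In the proximal libraries none of the 3 members kept the order of the endothelial sums. No endothelial or mural marker was listed at 0 in all 6 libraries. The part of these cells in the 3 members' values was not tested, and in bulk samples fewer cells of a type and less RNA per cell cannot be told apart.

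**Figure D4:**
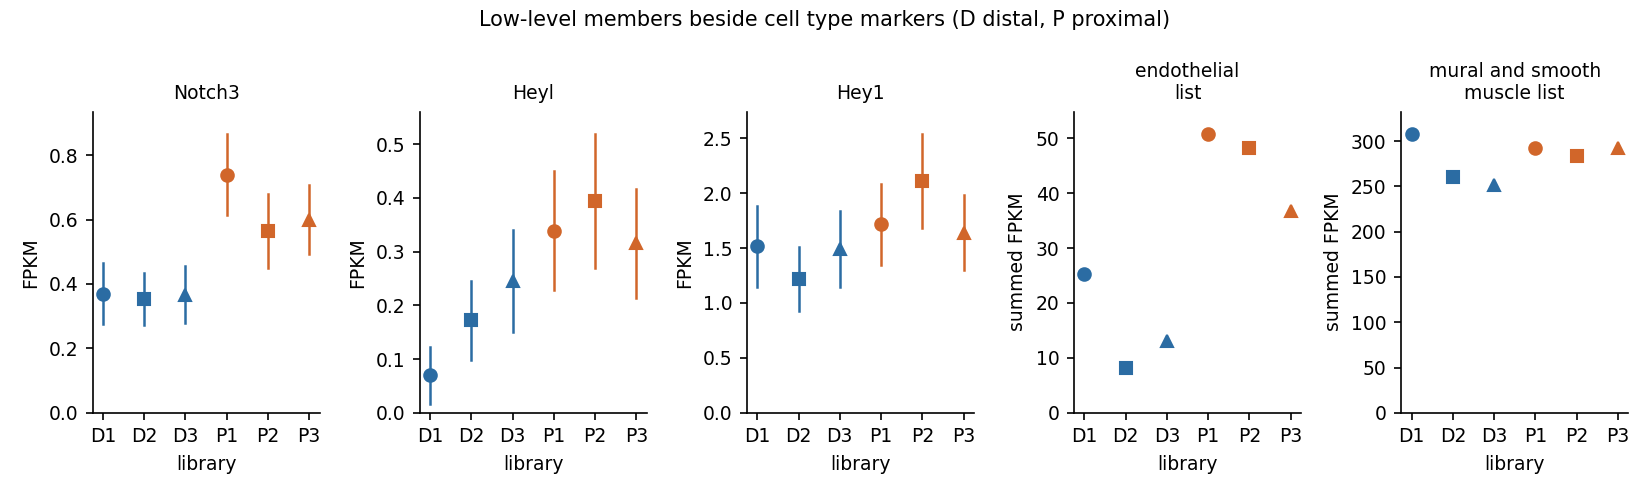
FPKM of Notch3, Heyl and Hey1 in each library (D1 to D3 distal, P1 to P3 proximal; vertical lines are the deposited intervals), beside the summed FPKM of the endothelial and of the mural and smooth muscle marker lists. The proximal libraries are higher for the 3 genes and for the endothelial list, at 36.8 to 50.8 against 8.19 to 25.3 FPKM, and lie within the distal range for the mural list.

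A wider list of 75 pathway genes was examined in the same fit. Of its 56 tested genes 1 rose, 0 fell and 55 did not pass, beside 7.02% called over all tested genes. An unadjusted p under 0.05 was reached by 14 of the 56, beside 24.0% of all tested genes, a share near that background. Its log2 fold changes, 32 negative and 24 positive, had a median of -0.05 against -0.01 over all tested genes. The gene that rose was Dtx4, an E3 ubiquitin ligase of the Deltex family, which acts on Notch receptors, on chromosome 19 (12466338 to 12501454). It was listed at 1.90, 1.25 and 2.57 FPKM in distal replicates 1 to 3 against 4.54, 6.38 and 7.14 FPKM in proximal replicates 1 to 3. The groups did not overlap, and the difference on the log2 scale was 1.28 ± 0.21 (SE, limma, adjusted p = 0.0125). The call was lost without distal replicate 2 (limma, adjusted p = 0.0511), proximal replicate 2 (0.0689) or proximal replicate 3 (0.0519).

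The machinery that receptors and ligands need was expressed, and Dtx4 was its only called gene. Of 9 proteases tested, 0 were called and 7 had a positive log2 fold change. Furin, which cuts the receptor precursor, was the most abundant, at 76.6 ± 3.08 (distal) against 92.5 ± 11.7 FPKM (proximal; SD, n = 3, limma, adjusted p = 0.220). All 7 tested genes that place sugars on the receptors had a negative log2 fold change, from -0.69 to -0.05 with a median of -0.14, and 0 were called. Eogt, a glycosyltransferase of the receptors' extracellular repeats, was the most abundant of these, at 13.6 ± 0.359 and 13.1 ± 1.03 FPKM (SD, n = 3, limma, adjusted p = 0.814). In the group for ligand endocytosis and receptor turnover, which holds Dtx4, 12 were tested, and its most abundant gene was Nedd4, a ubiquitin ligase, at 67.7 ± 1.22 and 66.4 ± 7.10 FPKM (SD, n = 3, limma, adjusted p = 0.888).

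In the nuclear complex 0 of 9 tested genes were called. Snw1, a coactivator of the complex and a splicing factor, was its most abundant gene, at 41.5 ± 3.66 (distal) against 46.1 ± 2.04 FPKM (proximal; SD, n = 3, limma, adjusted p = 0.418). Among corepressors 0 of 14 were called, and Fhl1, a LIM protein of which an isoform binds RBPJ, was the most abundant, at 215 ± 6.89 and 235 ± 27.6 FPKM (SD, n = 3, limma, adjusted p = 0.550). Of 4 tested non-canonical ligands 0 were called, and Dlk2, a membrane protein related to the Delta-like ligands, was at 20.4 ± 5.02 and 16.9 ± 2.68 FPKM (SD, n = 3, limma, adjusted p = 0.488).

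Other receptors, canonical ligands and HES or HEY genes were scarce. Hes6, a HES family member that counteracts Hes1, was the 1 tested of 7, at 1.84, 2.34 and 2.65 FPKM in distal replicates 1 to 3 against 1.47, 1.45 and 0.728 FPKM in proximal replicates 1 to 3 (limma, log2 fold change -0.58 ± 0.19 SE, adjusted p = 0.111). Dll4, a Delta-like ligand best known from endothelium, was under the minimum, at 0.521, 0.104 and 0.152 FPKM in distal replicates 1 to 3 against 1.45, 1.16 and 0.764 FPKM in proximal replicates 1 to 3. Within each region the libraries stood in the order of the endothelial sums, and the part of endothelial cells in Dll4 was not tested. Hey2, of the HEY family, was chosen after its values were seen. It lay opposite to Hey1 and Heyl, at 0.354, 0.218 and 0.355 FPKM in distal replicates 1 to 3 against 0.0497, 0.0916 and 0.0901 FPKM in proximal replicates 1 to 3, on 55 and 14 implied fragments. With no filter on low values it was lower (limma, adjusted p = 0.0479), and with a pseudocount of 0.1 as well it did not pass (limma, adjusted p = 0.0658). Among the genes named above from the wider list, Dtx4 and Furin passed as higher and Dlk2 and Hes6 as lower without both libraries numbered 1. In that fit 22.3% of all genes tested were called.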

How the data were processed

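Total RNA of 3 proximal and 3 distal basal libraries was amplified with random and oligo(dT) priming and sequenced. The submitters' processing notes name bcl2fastq 1.8.3, TopHat, Cufflinks and the build mm10. Versions of TopHat and Cufflinks and the annotation are not given in the sources used here. Per the file headers, the deposited FPKM values cover 63241 transcripts per library, each with an interval. The deposited coverage, a signal not scaled to depth, was only set against FPKM as a check of relative depth.

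Transcripts carry no gene names, so 53323 of them were matched to GENCODE M21 (GRCm38, the assembly of mm10) by span and spliced length, and FPKM was summed per gene. Matched transcripts held 93.9% of the FPKM. Where the deposited intervals follow counting error, their width gives a library's depth, and level, length and depth give the implied fragments behind a value. Whole fragments were not recovered and no count test was run. Reads shared by overlapping genes, on either strand, cannot be assigned here.

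With a minimum mean level of 1 FPKM, log2(FPKM + 1) values were compared in limma 3.58.1 under R 4.3.3 (lmFit and eBayes with a variance trend, two-sided, no covariates, Benjamini-Hochberg over 10255 genes, threshold 0.05). This scale understates the change of low genes. The procedure was tested on simulated data. Named genes are the 10 members, called genes of the wider list and the most abundant gene of each of its roles. The rule also asked for genes that vary most like a called member, and no member was called. Members and lists were chosen with earlier results of these data known. Tried were other pseudocounts, filters, scalings, variance models, matches and sample sets, and a replicate block. The fit with no filter and a pseudocount of 0.1 was chosen after seeing the data. Promoter sequences are from RefSeq (GRCm38.p6).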

Additional observations from a re-analysis of the deposited data

How the results depend on the processing

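Over all genes, 464 were higher and 256 lower in proximal cells. A filter at 5 FPKM gave 273 and 168, no filter gave 137 lower, and no filter with a pseudocount of 0.1 gave 154 lower. Leaving out 1 library gave 202 to 533 higher and 46 to 622 lower, and leaving out both libraries numbered 1 gave 908 and 1385. The count of lower members was 1 after quantile normalization, 0 to 1 on leaving out 1 library and 2 without both libraries numbered 1, and the count of higher members was 0 throughout. Dll1 reversed to 0.19 without distal replicate 1 and to 0.19 without both libraries numbered 1. Leaving out 1 library gave -0.25 to 0.19 for it. For the wider list, 0 were higher with the filter at 5 FPKM, which leaves out Dtx4, and 2 without the variance trend. With no filter 1 was lower. Leaving out 1 library gave 0 to 2 higher and 0 to 2 lower, and leaving out both libraries numbered 1 gave 4 and 9. The cause of the other shifts was not tested.

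Same-numbered libraries deviated from their group means with correlations of 0.38, 0.04 and 0.29, and distal replicate 2 correlated better with proximal replicate 3 (0.13), so the numbers were not taken as pairs. With the replicate block 880 genes were higher and 732 lower, members were 0 higher and 2 lower (Jag1 and Notch1, limma, adjusted p = 0.0314 and 0.0310), and the wider list had 4 higher and 2 lower, Lfng among the called genes. Of 151 further comparisons of single genes with their main value, 140 kept direction and side of the threshold, 6 passed newly, 3 lost the call of Dtx4 and 2 reversed. Depth limits Heyl most of the 10 members, at 7 to 38 implied fragments per library, and Hey2 had 3 to 21.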

Other observations

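Nrarp and Lfng, a glycosyltransferase that modifies Notch receptors, ordered the libraries of each region alike. Lfng was listed at 4.55, 2.30 and 1.63 FPKM in proximal replicates 1, 2 and 3, beside 6.96, 4.39 and 1.30 FPKM for Nrarp. In the distal libraries Lfng was at 5.53, 5.15 and 4.08 FPKM, again in the order of Nrarp, at 7.82, 6.16 and 5.81 FPKM. That order was not particular to this pair, since Notch1, Numb of the turnover group and the corepressor Ctbp1 had it in both regions too. Hes1 did not keep it, with 91.1, 78.0 and 83.0 FPKM in the proximal libraries. The share of all genes with that order was not determined. Lfng did not pass the test between regions (limma, log2 fold change -0.69 ± 0.26 SE, adjusted p = 0.159), and it did pass without proximal replicate 1 and without both libraries numbered 1. Those fits called 10.6% and 22.3% of all genes tested. Lfng was chosen for this comparison after its values were seen.

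Jag2 and Dll1 were the members whose difference between regions moved most with distal replicate 1, at -0.30 and -0.06 with it and -0.48 and 0.19 without it. Notch1 and Jag1 were at -0.31 and -0.30 without it, and neither passed (limma, adjusted p = 0.141 and 0.0921).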
